A study of Homo sapiens with 3 samples.

Results

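The regions described here are dense clusters of open chromatin away from gene ends in hCMEC/D3. This is a human line, immortalized for culture, that derives from the endothelium of brain capillaries and other small brain vessels. The regions were taken from the broad peak list of the ATAC-seq library labelled replicate 2. A peak was called distal when it lay more than 2 kb from either end of every protein-coding gene on chromosomes 1 to 22 and X. Distal peaks were joined when the gap between neighbours was at most 12.5 kb, and groups of at least 8 peaks were kept. This gave 1186 clusters with 13229 member peaks, 15.3% of the 86520 distal peaks and 12.4% of the 106415 peaks in the list.

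ATAC-seq uses the transposase Tn5 to cut and tag accessible DNA, so that read ends pile up where chromatin is open. The series holds 3 libraries of this 1 line, of which 2 are RNA-seq and 1 is the ATAC-seq library used here. Per the labels, the cells were at passages 4 to 6 and confluent on a collagen coating, and the labels name no treatment and no second cell type. There is therefore no comparison between groups and no replicate of the ATAC signal, and every value below describes 1 library without a test. The members were chosen by the positions of the called peaks and ranked on their length and pileup, so density and rank are descriptions. The library held 22188172 tags after duplicate removal. Of windows around listed RNA starts, 52.0% held a peak. The share of all protein-coding genes with a peak near an end was not computed, so the following counts are no check of the label. Of the endothelial marker genes, 12 of 12 had a peak within 1 kb of a gene end. Some markers of other cells did too, 3 of 6 for mural cells, 3 of 4 for neurons, 1 of 3 for astrocytes, 1 of 3 for oligodendrocytes, 3 of 5 for microglia and blood and 1 of 2 for epithelium, and an open gene end does not show that a gene is transcribed.

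Enhancers are stretches of regulatory DNA that raise transcription of a gene from a distance, through the transcription factors bound to them. They are often open, and genes that define a cell type often have many of them close together, sometimes called super-enhancers when they also carry dense coactivator or histone acetylation signal. In endothelial cells the ETS factors, such as ERG and FLI1, bind many enhancers together with AP-1, the dimer of FOS and JUN proteins, while TEAD factors bring the coactivators YAP and TAZ to DNA. Open chromatin alone does not tell an enhancer from an insulator, a silencer or an unlisted promoter.

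To show the DNA of such peaks, the 250 bases before a listed RNA start are printed for 6 member peaks that contain them whole. They come from high clusters beside genes described below and were chosen after the matches had been counted, to show windows with and without the letters. The sequences are those of RefSeq on GRCh38.p14, read 5′ to 3′ along the strand of the RNA. Capitals mark the AP-1 letters TGANTCA, the ETS letters GGAAGT or ACTTCC, and the TEAD letters GGAATG or CATTCC, searched on both strands. Letters of GATA factors and of CTCF were also counted but are not given or marked here.
PALM2AKAP2: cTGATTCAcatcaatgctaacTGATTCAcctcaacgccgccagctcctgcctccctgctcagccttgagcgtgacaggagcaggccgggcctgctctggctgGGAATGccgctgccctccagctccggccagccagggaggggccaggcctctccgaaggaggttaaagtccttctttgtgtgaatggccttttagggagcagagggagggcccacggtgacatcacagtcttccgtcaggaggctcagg
MIR222HG: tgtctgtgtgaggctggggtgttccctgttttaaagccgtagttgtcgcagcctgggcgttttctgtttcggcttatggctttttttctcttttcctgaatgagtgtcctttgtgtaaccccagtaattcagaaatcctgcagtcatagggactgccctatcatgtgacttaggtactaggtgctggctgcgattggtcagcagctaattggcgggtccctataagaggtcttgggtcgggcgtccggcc
SMAD3: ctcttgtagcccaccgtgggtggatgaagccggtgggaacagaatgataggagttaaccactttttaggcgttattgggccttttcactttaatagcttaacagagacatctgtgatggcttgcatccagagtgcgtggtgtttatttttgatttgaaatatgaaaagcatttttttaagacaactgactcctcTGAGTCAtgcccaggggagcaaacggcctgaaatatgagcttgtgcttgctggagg
LINC00513: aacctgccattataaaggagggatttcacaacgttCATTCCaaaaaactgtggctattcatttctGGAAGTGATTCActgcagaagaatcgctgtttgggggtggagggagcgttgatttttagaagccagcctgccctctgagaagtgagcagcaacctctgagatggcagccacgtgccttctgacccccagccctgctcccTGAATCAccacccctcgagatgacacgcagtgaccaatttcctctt
EGFL7: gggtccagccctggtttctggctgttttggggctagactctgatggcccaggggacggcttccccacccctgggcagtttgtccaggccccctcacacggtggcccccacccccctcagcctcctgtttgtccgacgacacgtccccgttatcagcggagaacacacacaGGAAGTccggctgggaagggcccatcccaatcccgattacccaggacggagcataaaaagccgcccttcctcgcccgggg
LOC124903872: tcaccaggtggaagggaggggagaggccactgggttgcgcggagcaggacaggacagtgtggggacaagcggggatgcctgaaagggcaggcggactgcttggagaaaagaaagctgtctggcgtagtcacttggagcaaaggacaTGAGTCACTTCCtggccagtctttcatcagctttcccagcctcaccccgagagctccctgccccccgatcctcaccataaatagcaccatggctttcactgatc

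The first sequence, chr9:110125251-110125500 on the plus strand, precedes a start inside PALM2AKAP2, a gene made of the neighbouring units for a paralemmin and a kinase anchoring protein. Its peak reached a pileup of 61.96 tags, at a fold of 5.59, where pileup is the mean depth of extended tags over the peak and fold is the ratio of that depth to the local background. It holds 2 AP-1 matches and 1 TEAD match. The stretch before MIR222HG, the host RNA of miR-221 and miR-222, lies at chrX:45770268-45770517 on the minus strand. Its peak had a pileup of 59.0, and the stretch holds none of the AP-1, ETS or TEAD letters. A start within SMAD3, which encodes a transcription factor of TGF-β signalling, is preceded on the plus strand by chr15:67125492-67125741, with 1 AP-1 match in a peak with a pileup of 62.7.

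LINC00513, a long non-coding RNA beside the miR-29 genes, begins after chr7:130913214-130913463 on the plus strand, and its peak had a pileup of 85.4. Its stretch holds 2 AP-1 matches, 1 ETS match and 1 TEAD match, and the ETS match shares its last base with an AP-1 match. In the stretch before EGFL7, chr9:136662666-136662915 on the plus strand, there is 1 ETS match and no AP-1 match, in a peak with a pileup of 52.6. The non-coding RNA LOC124903872 lies within ECE1, which encodes endothelin converting enzyme, and starts after chr1:21261833-21262082 on the plus strand. Here too an AP-1 match and an ETS match share 1 base, and the peak had a pileup of 55.4. For scale, among 34781 listed windows of 250 bases before to 50 after a start, 7.69% hold the AP-1 letters, 22.8% the ETS letters and 14.1% the TEAD letters. A match describes the letters and does not show that a factor was bound.

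Most distal peaks were not in clusters. Of 39525 groups of any size, 21257 were single peaks, and the number of groups fell smoothly through the threshold, with 510 groups of 7 peaks and 319 of 8. Groups just outside it had a median span of 32.8 kb, a median pileup of 23.7 tags and a median fold of 4.33. Groups just inside it had 37.8 kb, 26.1 tags and 4.23, so the limit of 8 peaks separates neighbours on a continuum. Clusters held 8 to 35 peaks with a median of 10, and 368 clusters reached 12 peaks and 61 reached 20. Their spans ran from 14.1 to 184 kb with a median of 49.4 kb. Member peaks covered 7.20 Mb of the 64.8 Mb spanned, or 11.1%, and the median gap between members was 4283 bp.

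**Figure D1:**
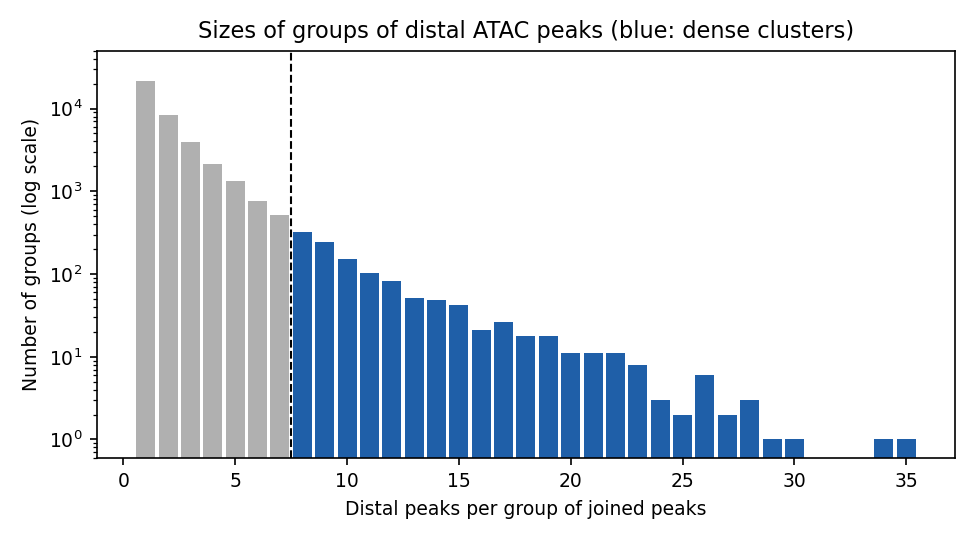
Number of groups of joined distal peaks (y, log scale) by the number of peaks in the group (x). Grey bars are groups below the threshold (dashed line) and blue bars are the dense clusters, from 319 groups of 8 peaks to 1 group of 35.

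Member peaks were longer and taller than other distal peaks, but stood less far above their surroundings. The median length was 457 bp in clusters and 400 bp in the 73291 other distal peaks, and the median pileup was 27.1 against 18.7 tags. The median fold went the other way, 4.07 in clusters against 4.56 elsewhere. The local background, the depth that the pileup and the fold together imply around a peak, had a median of 5.35 tags for members and 2.60 for other distal peaks. It was at the genome-wide minimum of 2.37 tags in 14.5% of members and in 44.8% of other distal peaks. Since the background is read from up to 10000 bp around a peak, neighbouring peaks of a cluster enter it, and how far this lowers their fold was not tested. Peaks close to gene ends, 19870 in number, had the largest median pileup of these classes, 36.9 tags.

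The same order held along group size. From single peaks to groups of 20 to 35, the median pileup rose through 15.9, 18.7, 22.2, 26.0, 28.1 and 30.9 tags. Over the same classes (1, 2 to 3, 4 to 7, 8 to 11, 12 to 19 and 20 to 35 peaks) the median fold fell through 4.73, 4.59, 4.37, 4.19, 4.00 and 3.74. The median background rose from 2.37 to 7.14 tags. The larger groups thus had higher peaks on a higher local background. Groups were joined by the positions of called peaks alone, and the source of this trend was not tested.

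Within a cluster the signal was spread over several peaks. The strongest member held a median of 26.7% of the cluster's summed length times pileup, from 7.37% to 73.3%, and in 685 clusters it held at least 25%. It fell in the first, middle or last section of the ordered peaks in 393, 406 and 387 clusters. The share of distal peaks that were in clusters ranged over the chromosomes from 7.18% on chromosome 7 to 20.9% on chromosome 21. On chromosome 21, 25 and 18 of the 234 member peaks belonged to clusters on ribosomal RNA genes, described below. Chromosomes 1 and 20 had 19.7% and 19.6%. Of neighbouring clusters, 133 pairs lay within 50 kb of each other, so that some large regions are split by the joining rule.

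Most clusters lay in or across genes. Of the 1186 clusters, 489 (41.2%) were inside 1 protein-coding gene and 352 (29.7%) overlapped a gene without being inside 1. Another 200 (16.9%) overlapped none but had one within 50 kb, and 145 (12.2%) had no protein-coding gene within 50 kb. Members lay inside protein-coding genes slightly more often than other distal peaks, 57.8% against 52.5%. Spans of 265 clusters (22.3%) also contained a peak near a gene end, which is not a member. The 1186 clusters overlapped 899 genes, 4.5% of the 19974 protein-coding genes, and 78 genes overlapped at least 2 clusters. PRKCH, which encodes a protein kinase C isoform, overlapped 4 clusters with 39 member peaks. CRIM1, a membrane protein that binds BMP ligands, and IGF1R, the receptor of insulin-like growth factor 1, each overlapped 3, with 35 and 33 member peaks. FLT1, the VEGF receptor 1 gene, also overlapped 3, at ranks 769, 781 and 1043, with 29 member peaks along its 195 kb.

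The clusters were ranked by summed length times pileup. The score ran from 38563 to 2457420 bp times tags around a median of 185199. Ranks 1, 3 and 10 stood at 13.3, 6.17 and 4.37 times the median. The 100 highest clusters held 21.9% of the summed score, and 329 clusters (27.7%) held 50%. Below the first pair the scores declined gradually.

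**Figure D2:**
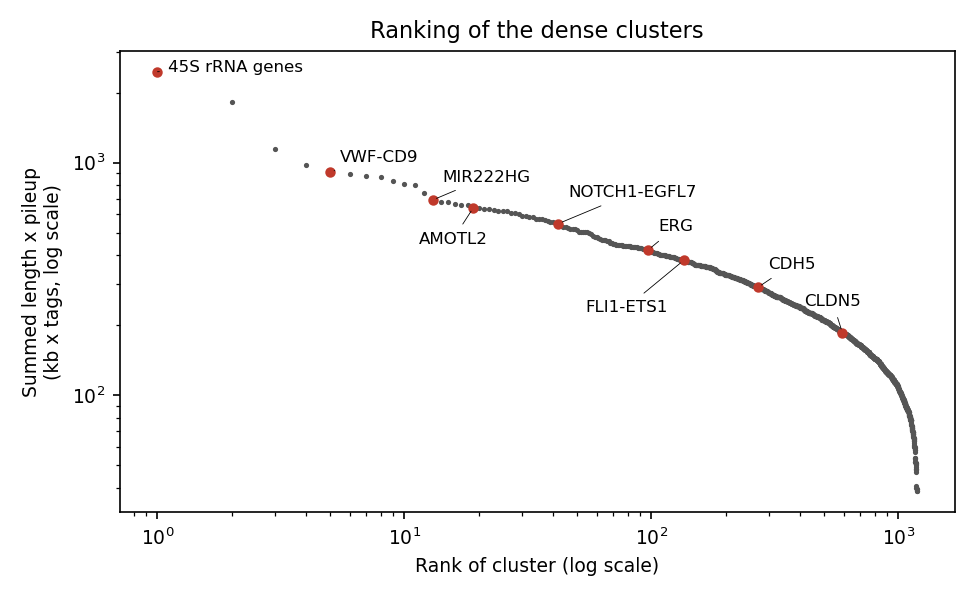
Score of each of the 1186 clusters (y, summed length times pileup in kb times tags, log scale) against its rank (x, log scale), each point being 1 cluster. Red points are named clusters: the 45S rRNA genes at rank 1, VWF-CD9 at rank 5 and CLDN5 at rank 593, close to the median score.

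Ranks 1 and 2 were not beside endothelial genes but on 45S ribosomal RNA genes of chromosome 21. The first, chr21:8377085-8471781, had 25 peaks with a median pileup of 128 tags, and the second, chr21:8194048-8260943, had 18 with a median of 120. Their median folds were 1.70 and 1.81, and their median backgrounds of 68.1 and 65.6 tags were 12.9 and 12.4 times the median over clusters. The 5 member peaks of highest pileup, 154 to 162 tags, were all in these clusters, as was the longest member, of 3182 bp. Ribosomal RNA genes exist in many nearly identical copies, and reads from all copies can be placed on the few in a genome build. The share of their pileup that comes from such reads was not tested. When length was multiplied by fold instead of pileup, the first pair moved to positions 119 and 285. The pair stood at positions 1 and 3 with the local background subtracted from the pileup, 1 and 9 by summed length, and 16 and 80 by number of peaks.

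Rank 3, chr17:19031768-19144766, had 26 peaks across GRAP and GRAPL, adaptor genes of near-identical sequence, and 3 genes of U3 small nucleolar RNA. The 18 peaks of rank 23, chr17:19162412-19249234, lay just beyond it, and 2 starts there, of GRAPL-AS1 and LOC388436, were preceded by identical 250-base stretches. Reads of such copies cannot be told apart with certainty. Rank 6, chr17:43265640-43316396, held 8 small nuclear RNA genes among 11 peaks with a median pileup of 80.2 tags. Its nearest protein-coding genes were CCDC200 and TMEM106A, at 34.4 and 45.6 kb.

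The other clusters of the first 10 by rank lay on or near protein-coding genes of varied function. SEPTIN9, which encodes a filament-forming septin, held the cluster with most peaks, rank 4, chr17:77285653-77430649, with 35 peaks and pileups of 8.76 to 87.4 tags around a median of 41.97. MYH9, the heavy chain of a non-muscle myosin, overlapped rank 7, with 27 peaks, a median pileup of 45.4 and a low median fold of 2.50 on a background of 17.6 tags. APOL1 lay 9.22 kb from it. MICAL2, an enzyme that oxidizes actin, contained rank 8 with 22 peaks and a median pileup of 44.1. Rank 9, with 17 peaks and a median of 65.7 tags, had SMNDC1, a splicing factor gene, as its nearest protein-coding gene at 48.2 kb. Rank 10 was inside ERGIC1, a protein cycling between endoplasmic reticulum and Golgi, with 23 peaks and a median of 55.8.

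Clusters with many peaks were also long. Rank 12, chr9:109969141-110153174, had 34 peaks and the longest span, 184 kb, inside PALM2AKAP2, with pileups of 12.3 to 71.4 tags and a background of 4.97. The strongest of its folds, 8.15, was at 17.3 kb from its start. The next by peak count were rank 26 over RTN4, a reticulon of the endoplasmic reticulum, with 30 peaks, and rank 14 over SHB, a signalling adaptor, with 29. Rank 16 over PTPN1, a tyrosine phosphatase, had 28 peaks, as did ranks 40 and 42. By span, rank 12 was followed by rank 14 with 168 kb, rank 26 with 161 kb, rank 32 near MFNG and CARD10 with 153 kb, and rank 40 near SH3TC2 with 152 kb.

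The share of genes with a cluster nearby was higher in the list of endothelial regulators than over all protein-coding genes. A cluster within 50 kb was found for 1971 of 19974 protein-coding genes, 9.87%. The transcription factor list, drawn up with earlier results of these data known, had 17 of 53, or 32.1% (95% Wilson interval over genes 21.1 to 45.5). The median rank of the highest cluster was 380 for these 17 genes and 524 for all genes with a cluster. Against a background of 0.991% of genes near one of the 100 highest clusters, 3 of the 53 were near one, namely SMAD6, ID1 and ERG. Of the 10 housekeeping genes, 2 were near one, and the median rank of these was 71. The interval covers counting alone, in 1 library, and is no test against the share of all genes, since the list was chosen with results known and neighbouring genes such as FLI1 and ETS1 can share a cluster. The share depends on the peaks admitted. With only peaks of fold at least 4, 109 clusters remained and 0% of the regulators had one, against 0.731% of all genes. At so low a share of all genes, a list of 53 cannot show a difference by having none. The endothelial surface list described below had 5% with that filter.

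The ETS family, whose members bind GGAA sequences, was represented by ERG, FLI1, ETS1, ETS2, ELK3, ELF1 and ELF4. The other ETS genes of the list, ETV2 and ETV6, had no cluster within 50 kb. ERG contained rank 97, chr21:38435089-38507112. Its 20 peaks had pileups of 20.6 to 58.1 tags with a median of 32.4, and a median fold of 3.45, so that no single member dominated, the strongest holding 14.8% of the score. The highest peaks, of 58.1, 55.1 and 54.9 tags, stood at 3.37, 59.6 and 25.01 kb from the start of the cluster.

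FLI1 and ETS1 shared rank 135, chr11:128621786-128734059, whose 21 peaks lay partly within FLI1 (13 of them) and partly in the interval between the genes, 34.2 kb from ETS1 at the closest. Pileups ran from 10.8 to 101 tags with a median of 38.0. A single peak of 565 bp, chr11:128709313-128709877, stood out with 101 tags and a fold of 6.61, and the next highest had 63.5 tags. ETS1 itself contained rank 271, chr11:128492537-128530441, with 11 peaks of 24.8 to 113 tags, and overlapped rank 1158 with 8 peaks of lower pileup, 8.28 to 31.1 tags. ELK3, which encodes a ternary complex factor, overlapped rank 173 with 19 peaks of 8.21 to 79.2 tags. ETS2 overlapped rank 380, whose 11 peaks had a median fold of 5.77, above the median of 4.16 over clusters, and lay 31.5 kb from rank 877. ELF4 overlapped rank 837, with a median pileup of 25.9 tags, near the median of 26.7 over clusters. ELF1 contained the 8 peaks of rank 1110, near the low end, with a median of 15.8 tags.

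SMAD6, an inhibitor of BMP signalling, overlapped rank 76, chr15:66714517-66863361, where 26 peaks over 149 kb had pileups of 10.6 to 60.8 tags. ID1, a BMP target that blocks helix-loop-helix factors, was overlapped by the span of rank 160, with 14 peaks of 11.1 to 102 tags, and lay 46.4 kb from rank 77, with 12 peaks of 11 to 76.8 tags. SMAD7, the inhibitor with a broader range, overlapped rank 357 with 17 peaks of 8.70 to 50.2 tags. SMAD3 is not on the regulator list and is named for the start shown above. It contained rank 18, chr15:67074277-67179075, with 26 peaks of 11.96 to 101 tags and its highest peak at 31.0 kb from the start.

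EPAS1, the oxygen-regulated factor HIF-2α, contained rank 134, chr2:46306301-46365199, with 14 peaks. One peak of 1171 bp, chr2:46314667-46315837, reached 105 tags and held 32.3% of the score, while the next had 58.4 tags. A neighbouring cluster, rank 354, lay 19.4 kb from the gene with 11 peaks of 13.3 to 59.8 tags. TAL1, a blood and endothelial factor, overlapped rank 843 and held 4 of its 9 peaks. The related LYL1 lay 37.3 kb from rank 516, whose 11 peaks were inside another gene, NFIX. FOXO1, a factor restrained by growth signals, was at rank 1074, and FOXP1 contained 3 clusters, ranks 743, 839 and 1096. SOX7 at rank 621 was 46.3 kb away from its cluster. No cluster lay within 50 kb of KLF2, KLF4, SOX17, SOX18, GATA2, MEF2C or LMO2.

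Endothelial surface and signalling genes had the largest share of the lists, 18 of 40, or 45% (30.7 to 60.2). The highest of their clusters was beside VWF, which encodes the adhesive protein stored in endothelial Weibel-Palade bodies. Rank 5, chr12:6133008-6242626, spanned the interval from 8.34 kb off VWF into CD9, a tetraspanin gene. Its 24 peaks had pileups of 9.3 to 99.9 tags with a median of 50.2, on a background of 16.7 tags that left a median fold of 3.22. The 3 highest, of 99.9, 99.1 and 93.8 tags, stood at 49.1, 38.1 and 34.3 kb from its start. Rank 36, chr12:6027065-6117108, lay inside VWF with 17 peaks of 9.41 to 95.7 tags, so that both sides of 1 end of the gene carried a dense cluster.

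NOTCH1, the receptor of the Notch pathway, and EGFL7, a secreted matrix protein of endothelium, both overlapped rank 42, chr9:136528534-136676215, which ran past EGFL7 into AGPAT2, a gene of phospholipid synthesis. Its 28 peaks over 148 kb had pileups of 11.7 to 73.1 tags with a median of 30.01, and 4 lay in NOTCH1 and 2 in EGFL7. Members of 73.1 tags at 116 kb and 63.4 tags at 147 kb from the cluster's start were the highest, on the side away from NOTCH1. Their folds were 3.11 and 1.77, on backgrounds of 22.8 and 35.4 tags, and the member of 63.4 tags was only 220 bp long. JAG1, a Notch ligand, overlapped rank 289, with 21 peaks of 9.27 to 54.6 tags and a median fold of 4.95. Only 2 of these peaks lay in JAG1, and the cluster also overlapped SLX4IP.

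**Figure D3:**
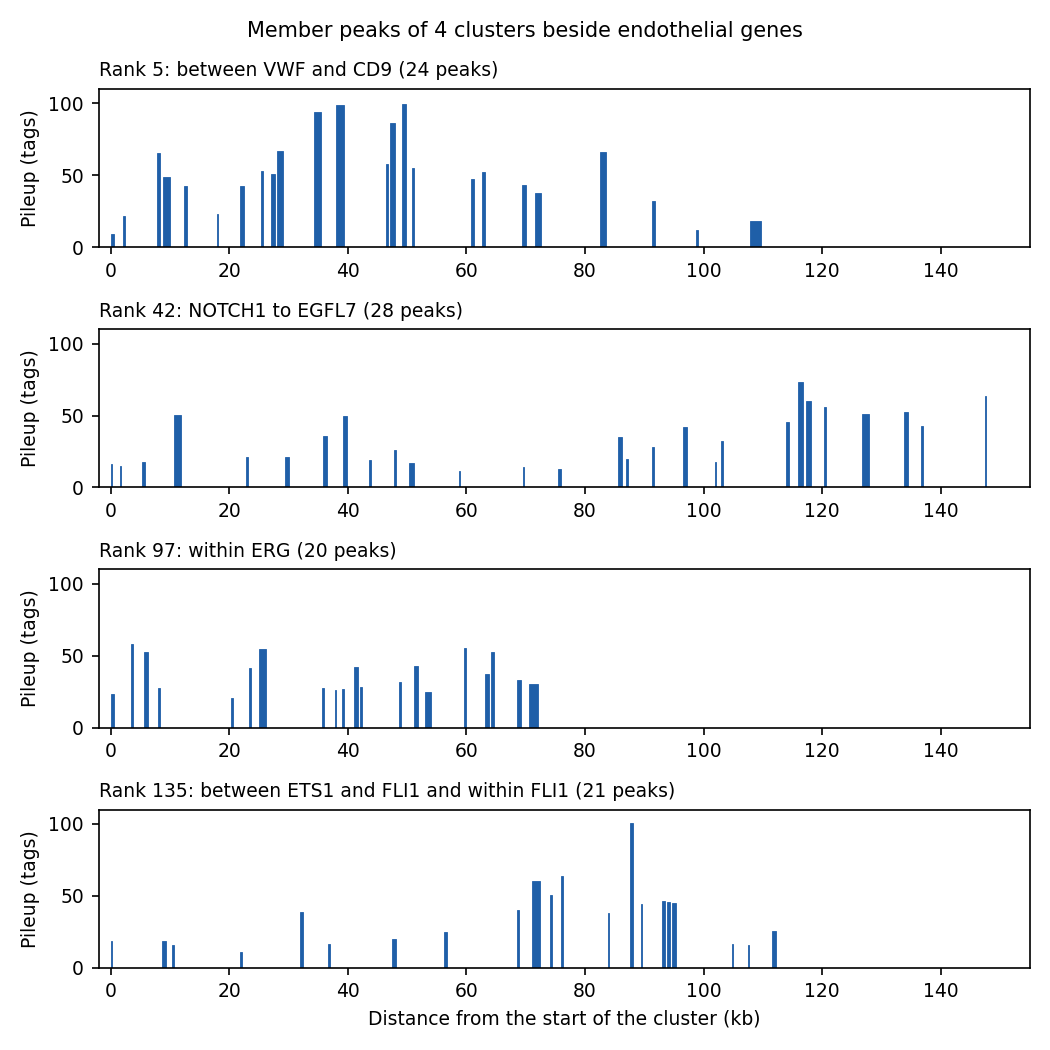
Pileup in tags (y) of the member peaks of 4 clusters, drawn as bars of the peak's width at its distance in kb from the start of the cluster (x). Rank 5 by VWF and CD9 has 24 peaks up to 99.9 tags, rank 42 over NOTCH1, EGFL7 and AGPAT2 has 28 up to 73.1, rank 97 within ERG has 20 up to 58.1, and rank 135 by FLI1 has 21 with 1 peak of 101.

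PECAM1, an adhesion molecule of endothelial contacts, held 12 of the 15 peaks of rank 169, with pileups of 10.5 to 74.1 tags. CDH5, which encodes VE-cadherin, overlapped rank 270, chr16:66315259-66383295, with 12 peaks of 11.9 to 73.9 tags, 4 of them in CDH5. The 2 highest of the 12, 73.9 and 68.6 tags, were long peaks of 1303 and 1344 bp. CLDN5, the main claudin of brain endothelial tight junctions, lay 9.69 kb from rank 593, whose 9 peaks had pileups of 17.0 to 53.8 tags.

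Receptors and ligands followed. ENG, a co-receptor of TGF-β and BMP ligands, overlapped rank 180, where 1 peak of 107 tags and a fold of 7.08 stood well above the next, 58.9 tags. NRP1, a co-receptor of VEGF and semaphorins, contained rank 283, with 13 peaks of 10.4 to 57.9 tags. EDN1, the gene of the vasoconstrictor endothelin 1, lay 14 kb from rank 363, and ANGPT2, a ligand of the TEK receptor, overlapped rank 431. In rank 431 the peak chr8:6528443-6528924 had 1 of the 5 highest folds of all members, 11.9. NOS3, which makes nitric oxide, overlapped rank 1052, with 9 peaks of only 15.03 to 31.31 tags. Of these peaks 3 lay in NOS3, and 8 protein-coding genes were within 50 kb of the cluster. KDR, TEK, TIE1, FLT4 and DLL4 had no cluster within 50 kb.

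Of the genes of the YAP, AP-1 and shear response list, 9 of 21 had a cluster, 42.9% (24.5 to 63.5). The highest was at AMOTL2, an angiomotin that binds YAP, at rank 19, chr3:134291910-134378977. Its 15 peaks, 3 of them in AMOTL2, had pileups of 10.8 to 102 tags. The member of 2202 bp with 70.4 tags held 24.2% of the score. WWTR1, which encodes TAZ, contained ranks 219 and 727 and lay 4.60 kb from rank 590, with 14, 9 and 15 peaks. In rank 590 the peak chr3:149480348-149480752 had a fold of 12.2. TEAD1, the DNA-binding partner of YAP and TAZ, contained ranks 451 and 596, while YAP1 lay 11.5 kb from rank 887. AMOTL1 contained rank 303.

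Short target genes of this list mostly lay beside a cluster. CCN1, a secreted matrix protein and common YAP target, lay 13.1 kb from rank 220, with 8 peaks of 11.3 to 118 tags, and 25.5 kb from rank 667. JUN had clusters at 6.95 kb, rank 212 with a median pileup of 46.6, and at 30.2 kb, rank 197 with a median of 16.8. In rank 197 the strongest peak held 48.9% of the score. FOSB lay 11.5 kb from rank 299.

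Genes chosen for brain endothelium had a smaller share, 4 of 24, or 16.7% (6.68 to 35.9). Among them were SLC7A5, a carrier of large neutral amino acids, at rank 406, RECK, a membrane partner of the Wnt co-receptor ADGRA2, 27.6 kb from rank 417, and the tight junction scaffold TJP1 at rank 432. TJP1 contained all 14 peaks of its cluster, 9.31 to 49.4 tags. The carriers SLC2A1, MFSD2A, ABCB1 and ABCG2, used as markers of the blood-brain barrier, had none within 50 kb.

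Lists of other cells gave shares nearer to that of all genes. Mesenchymal and mural genes had 2 of 22, or 9.09% (2.53 to 27.8), PDGFRB overlapping rank 906 and SNAI1 14.3 kb from rank 682. Genes of neurons, glia, blood and epithelium had 4 of 26, or 15.4% (6.15 to 33.5), MBP at rank 159, SYT1 at rank 400, RBFOX3 24.0 kb from rank 888 and EPCAM 8.05 kb from rank 1034. MBP, the gene of myelin basic protein, contained the 10 peaks of rank 159 with a median pileup of 51.9 tags and overlapped rank 281. Housekeeping genes had 2 of 10, or 20.0% (5.67 to 51.0), among them RPLP0, 24.8 kb from rank 79. These lists are short, and no test between lists was made.

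**Figure D4:**
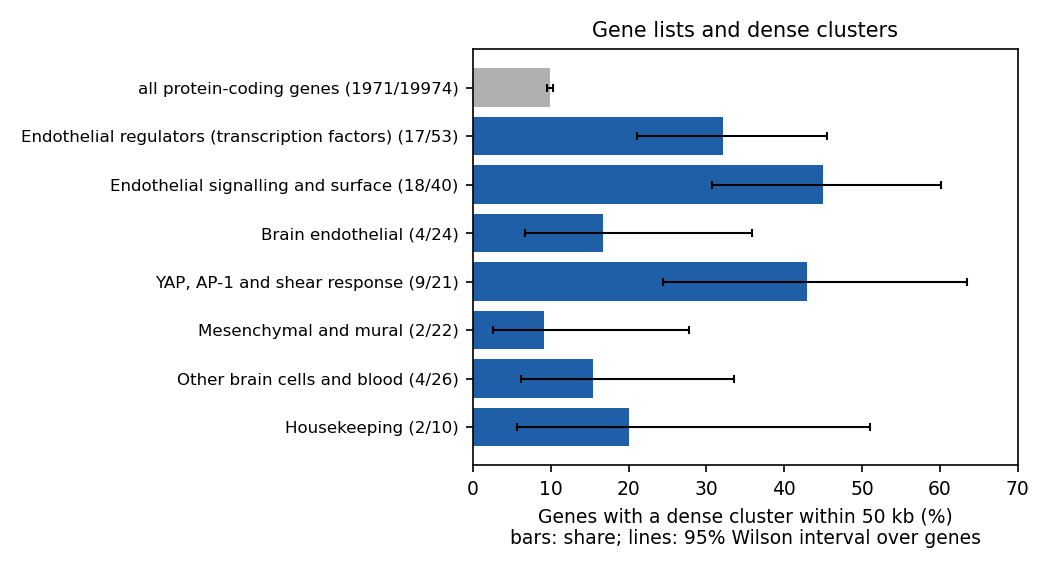
Share of the genes of each list with a dense cluster within 50 kb (x, percent; bars, with 95% Wilson intervals over genes as lines), with the counts beside each name. The endothelial surface list at 45%, the YAP, AP-1 and shear list at 42.9% and the regulators at 32.1% have higher shares than the 9.87% of all protein-coding genes (grey). The intervals cover counting alone and are no test.

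Gene length moved with the share of genes near a cluster. A cluster within 50 kb was found for 5.80% of genes under 10 kb, 8.47% from 10 to 30 kb, 11.1% from 30 to 100 kb, 17.3% from 100 to 300 kb and 15.7% above. The median length was 24.2 kb over all protein-coding genes, 19.8 kb for the regulators, 28.5 kb for the surface list and 12.1 kb for the YAP, AP-1 and shear list. The part of gene length in the shares of the lists was not tested. Of the 56 listed genes with a cluster, 15 had more than 1 within 50 kb, and ETS1, FLT1, FOXP1 and WWTR1 had 3 each.

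Clusters also held miRNA genes, of which 101 of 1558 hairpins, 6.48%, lay within the span of 78 clusters. miRNAs guide silencing of messages through their seed, bases 2 to 8. The following are shown because members of 1 seed family recurred within or between clusters, with the endothelial miR-126 for its place in rank 42. Sequences are from RefSeq, 5′ to 3′, with the seed in capitals.
hsa-miR-221-3p: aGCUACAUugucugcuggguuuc
hsa-miR-222-3p: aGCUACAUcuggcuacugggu
hsa-miR-29a-3p: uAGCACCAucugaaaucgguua
hsa-miR-29b-3p: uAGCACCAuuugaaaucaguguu
hsa-let-7a-5p: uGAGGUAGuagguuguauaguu
hsa-let-7b-5p: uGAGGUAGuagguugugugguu
hsa-let-7e-5p: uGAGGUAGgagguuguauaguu
hsa-miR-100-5p: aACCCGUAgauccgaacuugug
hsa-miR-99b-5p: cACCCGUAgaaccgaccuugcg
hsa-miR-126-3p: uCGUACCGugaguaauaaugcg

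Rank 13, chrX:45697512-45808878, spanned MIR222HG with both miR-221 and miR-222, which share the seed GCUACAU and have known roles in vessel growth, and had no protein-coding gene within 50 kb. Its 22 peaks had pileups of 13.7 to 73.5 tags, and its peak of highest fold, 9.25, was the first. The hairpins were not on a member peak, since miR-221-3p lay 1730 bp from the nearest member and miR-222-3p 2366 bp. In rank 29, chr7:130838725-130943952, miR-29a and miR-29b-1, regulators of collagen genes, lay 1112 and 1824 bp from a member with 23.6 tags, while the highest member, 85.4 tags, was the one at the start of LINC00513.

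The let-7 seed GAGGUAG recurred in 3 clusters. MIRLET7A3 and MIRLET7B lay in rank 34, chr22:46052800-46122826, whose 16 peaks had a low median fold of 2.39 on a background of 16.9 tags. MIRLET7A2 in rank 86, chr11:122136678-122215744, was itself on a member peak, of 14.2 tags. MIRLET7E lay in rank 599, chr19:51656842-51710483. Ranks 86 and 599 both pair a let-7 gene with 1 of the miR-99 family, miR-100 and miR-99b, of seed ACCCGUA. MIR143, best known from smooth muscle, lay in rank 122, 1138 bp from a member of 35.3 tags. MIR145, in the same cluster, was on that member. MIR126, which lies within EGFL7 and supports vessel integrity, was 5130 bp from the nearest member of rank 42. Among the 146 mature miRNAs in clusters, 27 came from a hairpin overlapping a member peak.

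Other clusters lay on long non-coding RNAs or on short repeated RNA genes. Rank 27, chr11:65468896-65517154, had 13 peaks on and around MALAT1, an abundant nuclear RNA, with pileups of 9.24 to 107 tags. Over all biotypes, 5.07% of 18177 lncRNA genes and 2.68% of 1196 snoRNA genes overlapped a cluster. The shares were higher for short repeated genes, with 118 of 443 tRNA genes (26.6%) in 17 clusters and 26 of 49 rRNA genes in 3 clusters. Rank 56, chr1:161440010-161471213, held 23 tRNA genes under 9 peaks. A further 32 of 154 snRNA genes were in 5 clusters, 2 of which hold the small NF90-associated RNAs at ranks 878 and 1017.

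Rank 73, chr1:228610161-228639622, was made of the 5S ribosomal RNA genes, transcribed by RNA polymerase III. Its 15 peaks lay over 14 listed RNA5S genes, a median of 2.24 kb apart from start to start. The coefficient of variation (CV) of that spacing was 20.2%, the lowest of all clusters, against a median of 62.4%. The CV of the pileups, 49.3 to 73.1 tags, was 9.33% against a median of 48.9%. DANT1 and DANT2, non-coding RNAs of the X-linked repeat DXZ4, carried rank 20, chrX:115843886-115898869, where 19 peaks stood a median of 2.98 kb apart with a CV of 29.0%. Both clusters had backgrounds far above the median of 5.28, at 26.1 and 17.6 tags. The part of repeat copies in this signal was not tested. By contrast, pileups spread from 9.3 to 99.9 tags in rank 5 by VWF and from 10.8 to 101 in rank 135 by FLI1.

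**Figure D5:**
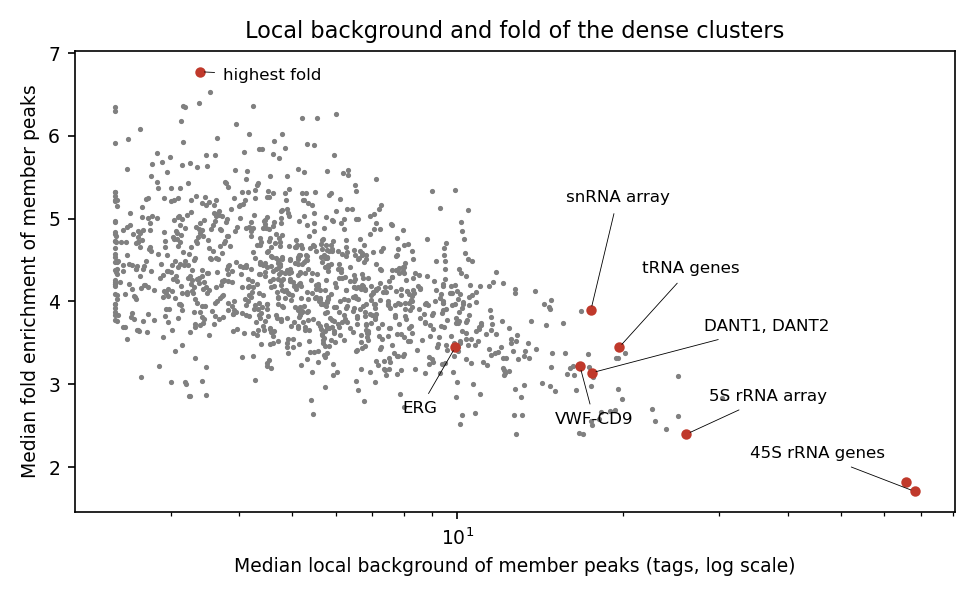
Median fold of the member peaks (y) against their median local background in tags (x, log scale), each point being 1 of 1186 clusters. Red points are named clusters: the 45S rRNA genes at backgrounds of 65.6 and 68.1 with folds of 1.81 and 1.70, the 5S array at 26.1 and 2.40, VWF-CD9 at 16.7 and 3.22, and the cluster of rank 823 with the highest median fold, 6.78.

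Fold and pileup picked out different clusters. At least 3 times the median background was found in 35 clusters, and 19 of these were among the 100 highest. The most closely spaced clusters were small and mostly of high background: rank 297 in PHLDB1 with 8 peaks in 14.1 kb and 23.9 tags, rank 73, rank 1102 in PLCB1 with 5.92 tags, rank 492 in CFLAR with 22.7 and rank 668 in CXXC5 with 12.7. At the other end, rank 823, chrX:104310005-104351768, had the highest mean fold, 7.06, from 8 peaks of 19.2 to 36.6 tags without a protein-coding gene within 50 kb. The single members of highest fold were in clusters of rank 431 to 1080, at 12.4 in rank 1026 by DIP2B, 12.3 in rank 1010 by CCDC71L, 12.2 in rank 590 by WWTR1, 12.04 in rank 1080 by CCDC141 and 11.9 in rank 431 by ANGPT2.

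Few members marked listed RNA starts. Only 457 member peaks (3.45%) overlapped a window around a start of the promoter table, close to the 3.34% of other distal peaks. Of the 537 windows on members, 277 belonged to lncRNA genes and 260 to inner starts of protein-coding genes, whose outer ends the rule keeps clear. The 457 were longer than the remaining 12772 members, with medians of 804 against 450 bp, and taller, with 41.4 against 26.7 tags, at nearly equal median folds of 4.08 and 4.07.

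AP-1 letters were frequent in these windows. Of 277 lncRNA windows on member peaks, 26.0% held TGANTCA, against 17.1% of 1493 on other distal peaks, 3.94% of those on peaks near protein-coding gene ends and 10.2% of those without a peak. For protein-coding windows the shares were 11.9%, 8.44%, 4.37% and 8.40%. The ETS letters differed less, at 27.8% of lncRNA windows on members, 23.5% on other distal peaks and 20.9% of all lncRNA windows. In protein-coding windows the ETS shares were 23.5%, 22.2% and 23.9% in that order, so members there were not above all windows. TEAD letters were held by 17.3% of lncRNA windows on members, 18.8% on other distal peaks and 17.2% of all lncRNA windows. For protein-coding windows the TEAD shares were 16.2%, 11.7% and 12.2% in that order. Letters of GATA factors and of CTCF were counted too. In the same order, the GATA shares of lncRNA windows were 9.39%, 11.3% and 14.6%, and those of CTCF 12.3%, 12.5% and 9.04%. In protein-coding windows they were 4.62%, 5.87% and 7.90% for GATA and 17.7%, 18.4% and 17.4% for CTCF.

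The base composition of the windows also differed. The median GC content of lncRNA windows was 54.3% on members, 57% on other distal peaks, 46% without a peak and 50% overall. Below 50% GC the AP-1 letters were in 37.0% of windows on members, 31.8% on other distal peaks and 12.2% without a peak. From 50 to 60% GC the shares were 33.3%, 17.3% and 8.53%, and from 60% upward 7.61%, 6.08% and 3.27%. Members had 92, 93 and 92 windows in these classes, and the share from 60% upward rests on 7 of 92 windows against 38 of 625 on other distal peaks. The part of base composition in the AP-1 shares was not tested. These counts describe windows at listed starts alone, and the 12772 members elsewhere were not searched.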

How the data were processed

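The authors called broad peaks for ATAC replicate 2 with MACS 2.2.7.1 without a control, per the file headers. Each peak's pileup signal (tags), its fold ratio of pileup over local background, and −log10 of its p-value and q-value were computed by the authors with that caller and deposited as it wrote them. Tags were shifted by -100 bp and extended to 200 bp, with q cutoffs of 0.05 and 0.1 for strong and broad regions, per the file headers. Paired-end mode was off, per the file headers, although the labels' protocols give paired-end sequencing, so tags and pileup are of single reads and not of whole fragments. Of 31532245 tags 22188172 were kept, with a genome size of 1870000000 bp, the caller's mouse preset, per the file headers. That size sets the lowest background, 2.37 tags, and a larger one would lower it and so raise folds at that minimum. Bowtie2, SAMtools 1.13, Picard, GRCh38 and mm10 are named in the submitters' processing notes, which give no roles. Any exclusion list for repeats is not given in the sources used here.

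Positions were compared with RefSeq tables of GRCh38.p14: 52.0% of start windows held a peak, against 4.63% to 6.03% after offsets of 2 to 50 kb, so coordinates are given as GRCh38. Of 59098 genes, 19974 were protein-coding. The local background was computed as (pileup + 1) / fold − 1, since the caller adds 1 to both terms. Clusters were formed and counted in Python 3.11.15 with pandas 2.3.3, numpy 2.4.6 and scipy 1.17.1, and the joining step was tested on simulated data. No test was made, since there is 1 library. Wilson intervals (95%) cover counting alone.

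The regions and gene lists were chosen with earlier results of these data known. Clusters named are the 10 highest, the 5 with most peaks, the 5 longest, the 5 most closely spaced, those of extreme mean fold, and those near regulators among the 100 highest. Peaks named are the 5 highest by fold, pileup and length. Of the listed genes, up to 25 by cluster score were to be named. Other genes, clusters and peaks, including those named for completeness, miRNAs, repeats or sequence, were chosen after their values were seen. The RNA-seq tables were not used here, since they list transcript identifiers that the reference tables do not pair with genes. Some listed genes are counted in the shares but not reported by name here.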

Additional observations from a re-analysis of the deposited data

How the results depend on the processing

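No paired analysis was possible because the ATAC data are 1 library without groups. Of 53 alternatives, 14 stayed within the limits set and 39 moved. Results are given in the order clusters (1186), member peaks (13229), share of regulators (32.1%) and share of all protein-coding genes (9.87%). A gap of 5 kb gave 72, 639, 1.89% and 0.591%, and one of 25 kb gave 2674, 38256, 64.2% and 32.5%. A minimum of 5 peaks gave 3786, 28012, 58.5% and 27.2%, and one of 12 gave 368, 5826, 15.1% and 3.34%. With −log10 q of at least 5 the values were 409, 4147, 13.2% and 3.53%, and with fold of at least 4 they were 109, 978, 0% and 0.731%. Keeping as many peaks by pileup as that fold filter gave 448, 4724 and, for all genes, 4.15%, with regulators at 22.6%. Clearing the ends of all genes gave 769, 8116 and, for all genes, 6.02%. With distal peaks more than 5 kb from a gene end the shares were 20.8% and 6.20%, and more than 1 kb from it the share of all genes was 13.1%. Windows of 20 and 100 kb gave 6.86% and 14.95% of all genes. Of the first 10 clusters, 3 stayed there when ranked by number of peaks, 6 by summed length, 3 by length times fold and 9 with the background subtracted. An upper limit on local background, chosen after seeing the data, gave 935 clusters and 7.26% of all genes. The share of regulators stayed above that of all genes in each setting except fold of at least 4. The data are limited by 1 library without a replicate or control, peaks called in repeats, and a gene table without strand.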
